A study of Mus musculus with 9 samples.

Results

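Mitochondrial respiratory chain genes were examined in whole pancreas of e15.5 mouse embryos. All gene symbols beginning with Nduf (followed by a, b, s, v or c), Uqcr, Cox4 to Cox8 or Atp5, and the 4 Sdh subunit genes, were taken, complex I assembly factors were left out, and a gene had to reach 1 FPKM in at least 3 of the 9 libraries. FPKM is the number of sequenced fragments scaled to transcript length and to all mapped fragments. Of 86 matching symbols 82 were kept, out of 13306 genes that passed the same filter and 23231 symbols in all. They comprise 36 genes of complex I, 4 of complex II, 8 of complex III, 16 of complex IV and 15 of ATP synthase. The remaining 3 share the letters but are not subunits: Cox4nb encodes a part of the endoplasmic reticulum membrane complex, and Atp5s and Atp5sl encode relatives of an ATP synthase coupling factor.

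The libraries came from embryos that were wild type (Blinc1+/+), heterozygous (Blinc1+/-) or knockout (Blinc1-/-) for a long noncoding RNA gene, with 3 libraries per genotype. All 9 shared a mixed background of C57BL/6 and 129Sv mice. The labels do not say whether libraries of 1 genotype came from separate embryos, so the p-values below reflect the spread among these samples alone, which may be technical. How the Blinc1 allele was made is not stated in the labels.

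The respiratory chain sits in the inner mitochondrial membrane. Complexes I and II pass electrons from NADH and succinate to coenzyme Q, complex III passes them on to cytochrome c, and complex IV reduces oxygen. The proton gradient built by complexes I, III and IV drives ATP synthase. Most subunits are encoded by nuclear genes and imported, and a core set is encoded in mitochondrial DNA; the latter set was not analysed here. In the pancreas, acinar cells use ATP for enzyme synthesis, and in beta cells ATP made in mitochondria couples glucose to insulin secretion.

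Depth read from the deposited confidence bounds was 19532984 to 25437255 fragments per library. For 74 of the 82 genes the counting error alone was under 5% of the level, a figure that covers counting error only. Xist, which marks female embryos, was above 1 FPKM in all 3 knockout libraries but only in replicate 3 of the wild types and of the heterozygotes, so the comparisons with the knockout are confounded with embryo sex, while heterozygotes and wild types are balanced. All 10 acinar markers and all 10 endocrine markers of the lists used passed the same filter, beside markers of mesenchyme, endothelium and blood. In such bulk samples, fewer cells of a type and less RNA per cell cannot be told apart.

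The respiratory chain was transcribed at high levels in every library. The median gene of the 82 had a mean of 172.1 FPKM over 9 libraries, against 11.59 FPKM over all tested genes. Summed over the 82 genes, levels were 18819, 18886 and 20442 FPKM in the wild types, 20407, 19966 and 20435 in the heterozygotes and 19494, 21078 and 20821 in the knockouts. These sums made up 3.62% to 3.88% of the FPKM of all tested genes in a library. Levels of 11 genes were at 500 FPKM or more, of 23 between 200 and 500, of 24 between 100 and 200, of 12 between 50 and 100, of 9 between 10 and 50, and of 3 below 10.

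**Figure D1:**
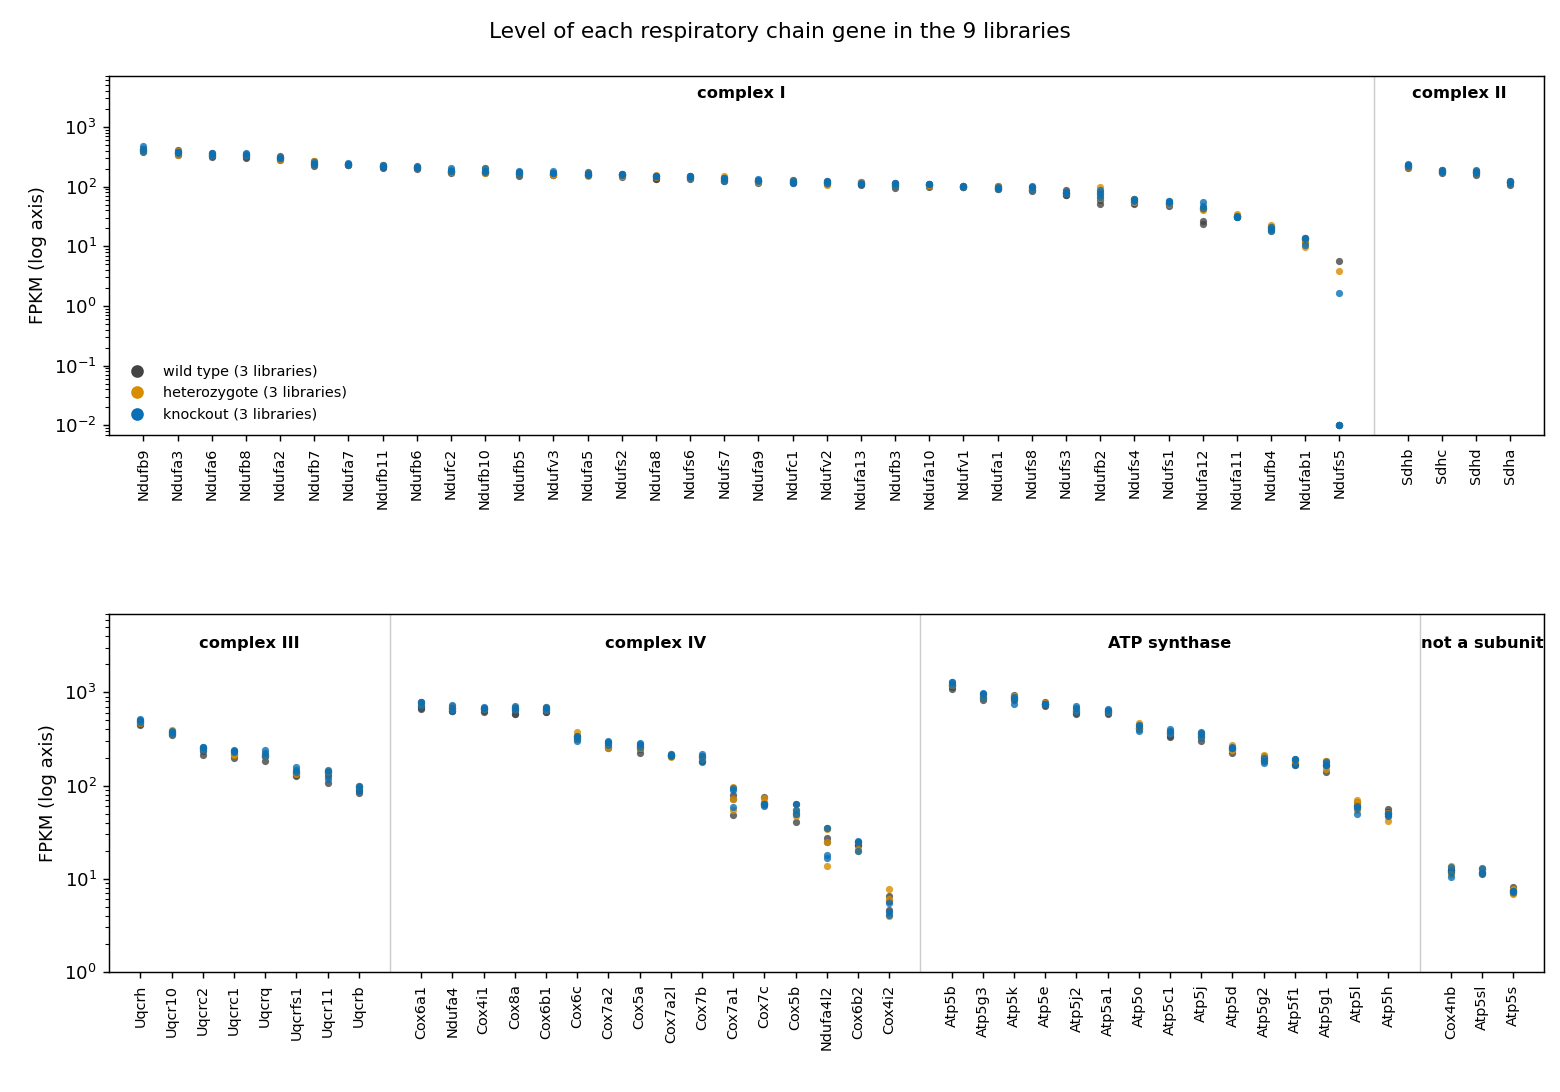
FPKM (log axis) of each of the 82 genes, by complex and in order of mean level, with 1 point per library coloured by genotype. Most genes sit above 50 FPKM with the 9 libraries close together; Ndufs5 is listed near 0 in 6 libraries, drawn here at 0.01, and Ndufa4l2, Cox7a1 and Ndufa12 show the widest spread among the others.

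In complex I, which oxidises NADH, the accessory subunit genes Ndufb9, Ndufa3 and Ndufa6 had the highest means, at 417.5, 369.4 and 339.7 FPKM. The summed level of the complex was 5302 ± 285 FPKM in wild type, 5495 ± 61.9 in heterozygotes and 5572 ± 166 in knockouts (SD, n = 3). The core subunit genes were lower than these accessory genes: Ndufv1, whose product binds NADH and the flavin, had a mean of 99.99 FPKM, and Ndufs1, which encodes the large iron-sulfur subunit, 53.03 FPKM. Ndufv1 had the smallest spread of all 82 genes, with a coefficient of variation (CV, the SD over the mean of 9 libraries) of 2.01%. Its levels were 97.3, 97.3 and 100.5 FPKM in wild type, 98.99, 99.7 and 102 in heterozygotes, and 103.4, 100.7 and 100.1 in knockouts. Ndufa7, an accessory subunit gene, followed with a CV of 2.13%. The lowest gene was Ndufs5, which encodes a subunit facing the intermembrane space, at 1.25 FPKM.

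Complex II, succinate dehydrogenase, also works in the tricarboxylic acid cycle, and its 4 genes lay close to each other. Sdhb, the iron-sulfur subunit gene, had a mean of 222.1 FPKM. The membrane anchor genes Sdhc and Sdhd were at 180.2 and 176 FPKM, and Sdha, which encodes the flavoprotein, at 118.8 FPKM. Their sum was 675.2 ± 32.1 FPKM in wild type, 706.8 ± 20 in heterozygotes and 709.6 ± 22.9 in knockouts (SD, n = 3). In every library Sdhb was the highest of the 4 and Sdha the lowest. Sdhc and Sdhd differed by less than their spread over libraries.

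In complex III, the cytochrome bc1 complex, the small hinge subunit gene Uqcrh was highest with a mean of 482.5 FPKM, followed by Uqcr10 at 370.1 and the core protein gene Uqcrc2 at 246.1 FPKM. Uqcrb, which encodes a subunit at the coenzyme Q pocket, was lowest at 93.17 FPKM. The sum was 1820 ± 82.6 FPKM in wild type, 1914 ± 18.3 in heterozygotes and 1962 ± 95.4 in knockouts (SD, n = 3). Uqcrfs1, the gene of the Rieske iron-sulfur protein, had a mean of 139.2 FPKM.

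Complex IV, cytochrome c oxidase, contained the genes of several subunits with tissue-specific isoforms. Cox6a1 was highest at 739.3 FPKM, followed by Ndufa4, now counted with complex IV, at 673.9 and Cox4i1 at 662.7 FPKM. Cox8a and Cox6b1 were close behind, at 657.1 and 655.8 FPKM. The sum was 4688 ± 199 FPKM in wild type, 5015 ± 94.7 in heterozygotes and 5024 ± 237 in knockouts (SD, n = 3).

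Where complex IV subunits have a broad and a restricted isoform, the broad form dominated in every library. Cox4i2, an isoform known from lung and from pericytes, made up 0.586% to 1.14% of the FPKM of Cox4i1 and Cox4i2. Cox6b2, best known from testis, made up 2.85% to 3.77% of its pair, and Ndufa4l2, a hypoxia-responsive relative of Ndufa4, 2.04% to 5.27%. The heart and muscle form Cox6a2 reached 1 FPKM in 1 library only and made up 0.0104% to 0.189% of its pair. Cox7a1, also named for heart and muscle, was the exception, with 15.6% to 25% of the FPKM of Cox7a1 and Cox7a2. Skeletal muscle transcripts were low in the same libraries: the 7 muscle markers (Myh3, Myh8, Acta1, Ckm, Myl1, Actn2 and Ttn) summed to 2.09 to 4.22 FPKM per library, against 47.95 to 95.5 FPKM of Cox7a1. Cox7a2l, which encodes a factor joining complexes into supercomplexes, was at 210.9 FPKM and varied little, with a CV of 2.51% and levels of 203.6 to 219.3 FPKM.

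The filter left out 4 matching symbols, all restricted isoforms of complex IV. Cox6a2, with a mean of 0.529 FPKM, was nearest to the limit, and Cox7b2 and Cox8c had means of 0.0648 and 0.0722 FPKM. Cox8b, the heart and muscle counterpart of Cox8a, was listed at 0 in all libraries. Just inside the limit was Ndufs5, at 1 FPKM or more in exactly 3 libraries.

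ATP synthase genes were the most abundant. Atp5b, which encodes the catalytic beta subunit, had the highest mean of the 82 genes, 1208 FPKM. It was at 1146, 1100 and 1215 FPKM in wild type, 1242, 1197 and 1198 in heterozygotes, and 1199, 1289 and 1286 in knockouts. The wild types overlapped with both other groups. Atp5g3, Atp5k and Atp5e, which encode a c-ring subunit, the e subunit and the epsilon subunit, followed at 910.7, 867.6 and 750.8 FPKM. Atp5e was among the steadiest genes, at 719.7 to 780.8 FPKM over the 9 libraries. The catalytic partner gene Atp5a1 had a mean of 624.7 FPKM, about as high as the f subunit gene Atp5j2 at 646.2. Atp5h, the d subunit gene of the peripheral stalk, was lowest at 49.35 FPKM.

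The c subunit of the rotor ring is encoded by 3 genes whose mature products are the same protein. Atp5g3 supplied 69.7% to 73.1% of their summed FPKM, Atp5g2 13.5% to 16.4% and Atp5g1 11.6% to 14%. The order of Atp5g3 above Atp5g2 above Atp5g1 was the same in 9 of 9 libraries. ATP synthase genes summed to 6866 ± 333 FPKM in wild type, 7107 ± 113 in heterozygotes and 7166 ± 359 in knockouts (SD, n = 3).

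Some low values sat at genes with near-identical processed copies elsewhere in the genome. The coding sequence of each gene was searched against mm9 (GENCODE annotation of the same assembly), counting a hit of at least 95% identity over at least 80% of the coding length, in 1 uninterrupted alignment away from the gene. Of the 79 subunit genes, 21 had 43 such copies. The median level was 209.5 FPKM for the 58 genes with no copy. It was 186.9 FPKM for the 10 genes with copies but none inside a listed locus, and 60.68 FPKM for the 11 with a copy inside the locus of another listed gene. Below 100 FPKM were 11 of the 58, 2 of the 10 and 8 of the 11. Reads that fit several places can be shared between loci or lost, and the mapping allowed 10 hits per read. How far this set the levels was not tested. A copy did not go with a low value in every case, as Atp5k has 2 copies and was at 867.6 FPKM. Its copies are at 95.83% and 95.37% identity, near the 95% limit of the search.

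**Figure D2:**
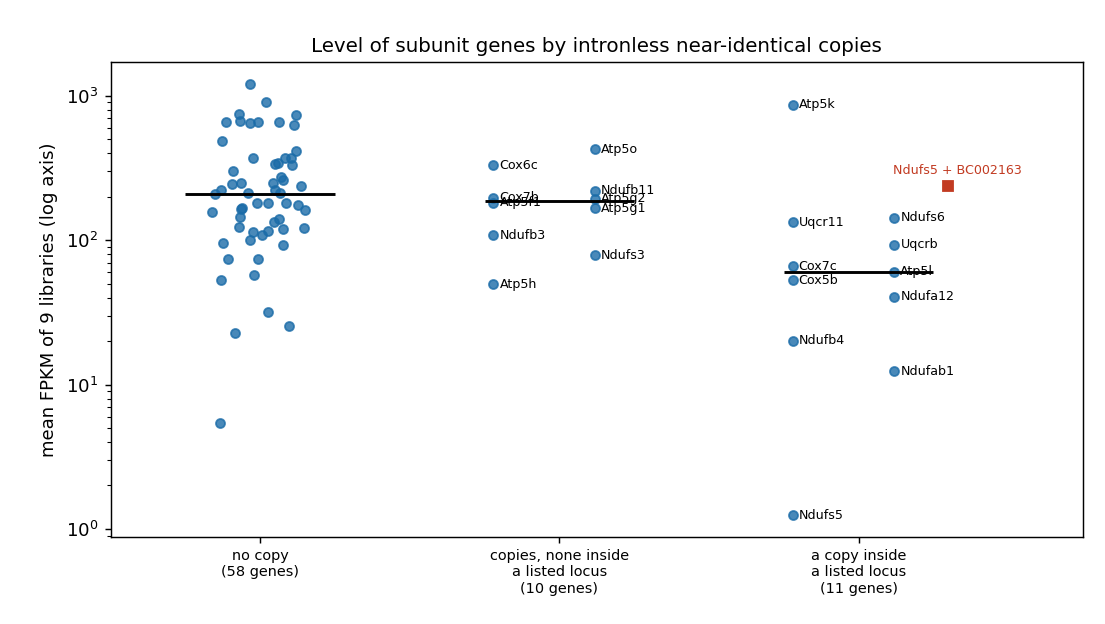
Mean FPKM of the 79 subunit genes (log axis), grouped by near-identical copies in the genome, with black lines at the medians of 209.5, 186.9 and 60.68 FPKM. Points are genes, named in the groups with copies, and the red square is the sum of Ndufs5 and BC002163, which lies near 236.4 FPKM while Ndufs5 alone lies near 1.25.

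Ndufs5 was the lowest of the genes with copies and also the most variable gene, with a CV of 171%. It was at 5.76 FPKM in wild-type replicate 2, 3.83 in heterozygote replicate 3 and 1.64 in knockout replicate 1. In the other 6 libraries it was listed at 2.305e-05 FPKM or less. Ndufs5 lies on the minus strand of chr4:123389953-123395429 (mm9). A locus listed as BC002163, named here because of its values, covers almost the same interval, chr4:123389953-123395404, at 48.3 to 65.4 FPKM. A second BC002163 locus, chr16:42955693-42956192, was at 169.6 to 192.1 FPKM and holds an intronless copy of the Ndufs5 coding sequence. Ndufs5 and both BC002163 loci summed to 224.1 to 247.3 FPKM, or 236.4 ± 10.1 (SD, n = 9), which is in the range of other complex I genes. The parts of the overlapping locus and of the chr16 copy in the low Ndufs5 values were not tested. No genotype difference of Ndufs5 alone can be read from these values. The copy differs from the Ndufs5 coding sequence at positions T81C and A105G, counted from 1 at the first coding base. The 65 bases from coding position 61 to 125 hold both. They are shown 5′ to 3′ with the differing bases in capitals, from the GENCODE transcript and from the plus strand of mm9 chr16:42955804-42955868:
Ndufs5: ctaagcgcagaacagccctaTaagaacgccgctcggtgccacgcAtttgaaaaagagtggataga
chr16 copy: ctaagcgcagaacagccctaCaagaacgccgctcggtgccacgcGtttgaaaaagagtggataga

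Ndufa12 encodes an accessory subunit of the NADH-oxidising arm of complex I and had the largest genotype difference of the 82 genes. Ndufa12 (chr10:93661754-93683693, plus strand, mm9) has a copy within the locus of another gene, Rabgef1, at chr5:130664263-130664666. The alignment covers 89.8% of the coding length at 99.5% identity, and the 2 differences are A147G and T426C. The stretch from coding position 127 to 406 holds the first of them, in capitals, and is otherwise the same letter for letter; the copy is read from the plus strand of chr5:130664343-130664622:
Ndufa12: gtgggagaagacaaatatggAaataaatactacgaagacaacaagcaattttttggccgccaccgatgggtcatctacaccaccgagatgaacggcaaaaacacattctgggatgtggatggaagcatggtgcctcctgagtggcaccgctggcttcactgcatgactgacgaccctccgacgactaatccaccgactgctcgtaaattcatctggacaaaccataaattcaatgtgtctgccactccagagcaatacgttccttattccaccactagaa
chr5 copy: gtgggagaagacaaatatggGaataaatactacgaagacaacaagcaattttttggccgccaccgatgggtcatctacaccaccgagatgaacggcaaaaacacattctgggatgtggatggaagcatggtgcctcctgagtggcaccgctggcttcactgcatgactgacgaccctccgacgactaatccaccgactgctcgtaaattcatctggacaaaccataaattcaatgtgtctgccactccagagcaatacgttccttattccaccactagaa

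Cox7c, the gene of a small membrane subunit of complex IV, has 4 copies, 1 of which is identical to it over the whole coding length. Cox7c was at 60.4 to 76.1 FPKM, with a mean of 66.09, while the complex IV genes above it in level were at 73.56 FPKM or more. The coding sequence below is also found on the minus strand of mm9 chr11:75413265-75413456, within Pitpna, with no base changed:
Cox7c: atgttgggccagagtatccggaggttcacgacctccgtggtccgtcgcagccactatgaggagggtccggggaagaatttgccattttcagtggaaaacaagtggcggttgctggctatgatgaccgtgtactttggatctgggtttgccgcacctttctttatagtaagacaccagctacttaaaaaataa

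Ndufb4, a complex I gene at 20.11 FPKM, has 2 copies, both identical over the coding sequence. Atp5l, the g subunit gene of ATP synthase, has 8, of which 1 is identical, and was at 60.68 FPKM. Levels of such genes are uncertain in absolute terms. Differences between libraries touch the same rows in each library, and the median CV was 9.81% for the 11 genes with a copy in a listed locus against 5.48% for the 58 without copies.

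Across genotypes, none of the 82 genes passed the test in any comparison. In limma with Benjamini-Hochberg adjustment over all 13306 genes, the smallest adjusted p among them was 0.58 for knockout against wild type, 0.95 for heterozygote against wild type and 0.9998 for knockout against heterozygote. The background was the same, with 0% of all tested genes called in each comparison at an adjusted p under 0.05. The voom fit on fragment numbers implied by the bounds also called 0 genes. At an unadjusted p under 0.05, 9 of the 82 were higher and 0 lower in knockout than in wild type, against 2.6% and 5.79% of all tested genes (1117 genes). In heterozygotes 4 were higher and 1 lower than in wild type, against 1.35% and 2.58% (522 genes), and between knockout and heterozygote 0 were higher and 0 lower, against 1.26% and 0.969% (296 genes). With voom these counts were 8, 4 and 0 of the 82.

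The intervals were narrow. The median standard error of the 82 log2 differences was 0.07, against 0.09 over all tested genes, and the 95% interval lay within 1.5-fold in either direction for 76 of the 82 in knockout against wild type, for 77 in heterozygote against wild type and for 77 in knockout against heterozygote. Over all tested genes the shares were 85.4%, 88.9% and 90.1%. Differences on the log2(FPKM + 1) scale were between -0.2 and 0.2 for 76, 78 and 80 genes.

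**Figure D3:**
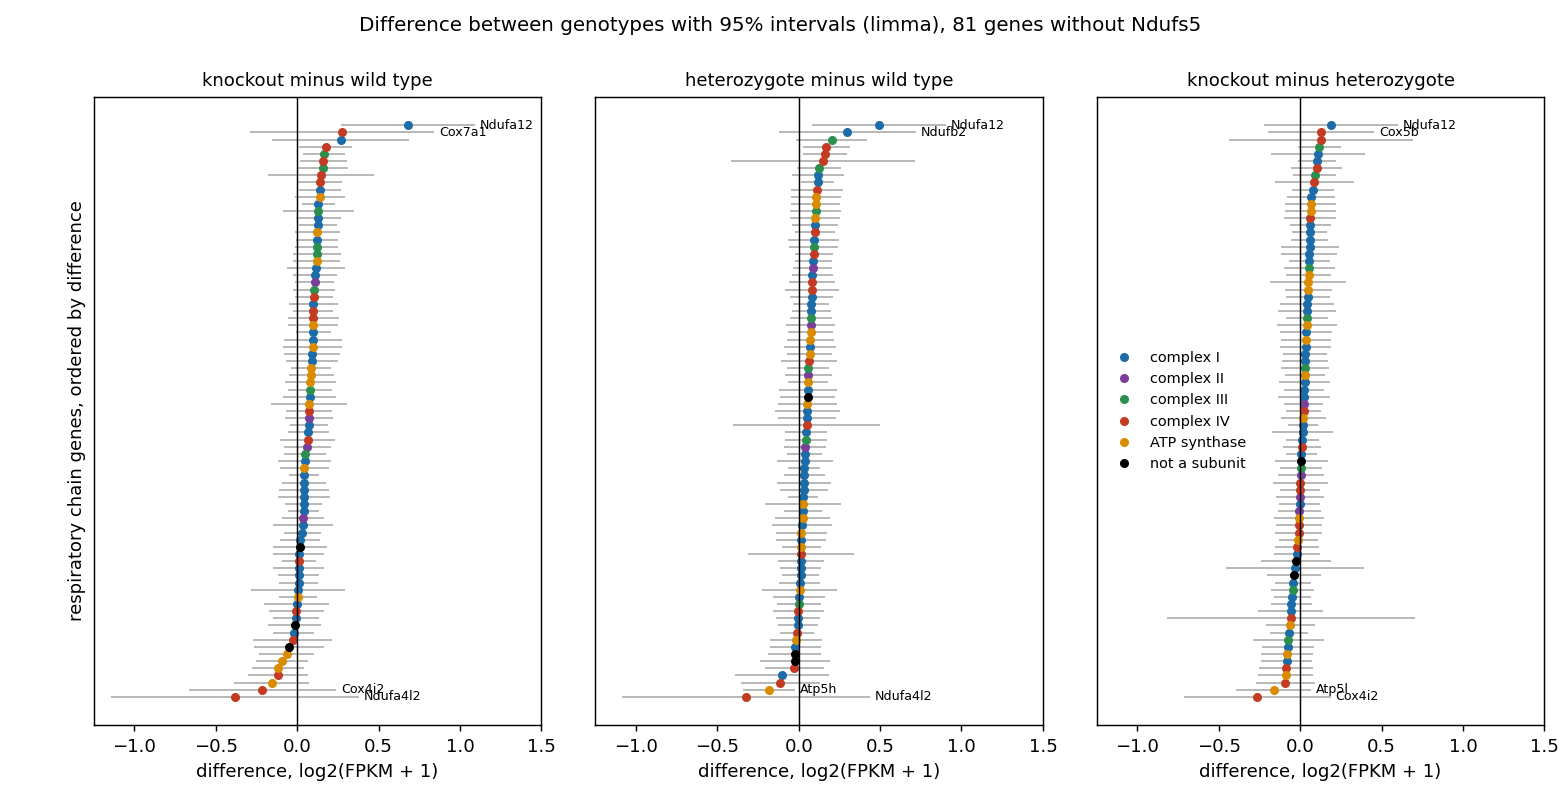
Difference in log2(FPKM + 1) between genotypes for 81 genes, each with its 95% interval from limma, ordered within each panel; Ndufs5 is left out because it is listed near 0 in 6 libraries. Most points of the left and middle panels lie a little to the right of 0, and Ndufa12 lies farthest to the right in all panels.

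Most genes were a little higher in both mutant groups than in wild type. The log2 difference was above 0 for 67 of 82 genes (81.7%) in knockout against wild type, where 41.5% of all tested genes were above 0. In heterozygote against wild type it was above 0 for 68 (82.9%), against 42.9% of all tested genes. Both comparisons share the wild-type libraries. Between knockout and heterozygote 52 genes (63.4%) were above 0, against 44.7%. The medians were 0.07, 0.05 and 0.02, against -0.03, -0.02 and -0.01 over all tested genes. With libraries scaled by the median of ratios, the shares of all tested genes above 0 moved to 52.3%, 51.9% and 50.7%, and 73, 74 and 59 of the 82 were above 0. With quantile normalization 62, 57 and 49 were above 0, against 53.9%, 51.8% and 51.3% of all tested genes.

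By complex, all 8 complex III genes and all 4 complex II genes were above 0 in knockout against wild type, as were 32 of 36 in complex I, 11 of 16 in complex IV and 11 of 15 in ATP synthase. In heterozygote against wild type the counts were 8, 4, 31, 11 and 13 in that order. With sex as a covariate the counts in knockout against wild type were 7, 2, 24, 10 and 8, and over all libraries left out in turn complex III stayed at 8 of 8 while complex I ran from 24 to 34. None of these genes passed the test, so these are counts of small differences: the medians by complex in knockout against wild type ran from 0.05 in complex I to 0.12 in complex III.

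The libraries of 1 genotype did not behave alike. Wild-type replicates 1 and 2 were low: 11 and 16 of the 82 genes lay above their own mean over 9 libraries, against 61.7% and 48.9% of all tested genes. In wild-type replicate 3 the count was 56 (68.3%), against 56.6% of all tested genes. In the heterozygotes it was 57, 35 and 54 (69.5%, 42.7% and 65.9%), against 59.2%, 42.9% and 46.7%. For the knockouts it was 27, 68 and 64 (32.9%, 82.9% and 78%), against 63.7%, 35.2% and 46.9%. Wild-type replicate 1 had the lowest level of 33 genes and wild-type replicate 2 of another 25, while knockout replicate 2 had the highest level of 23. Wild-type replicate 3 lay among the mutant libraries, and knockout replicate 1 lay between heterozygote replicate 2 and the lower wild types.

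**Figure D4:**
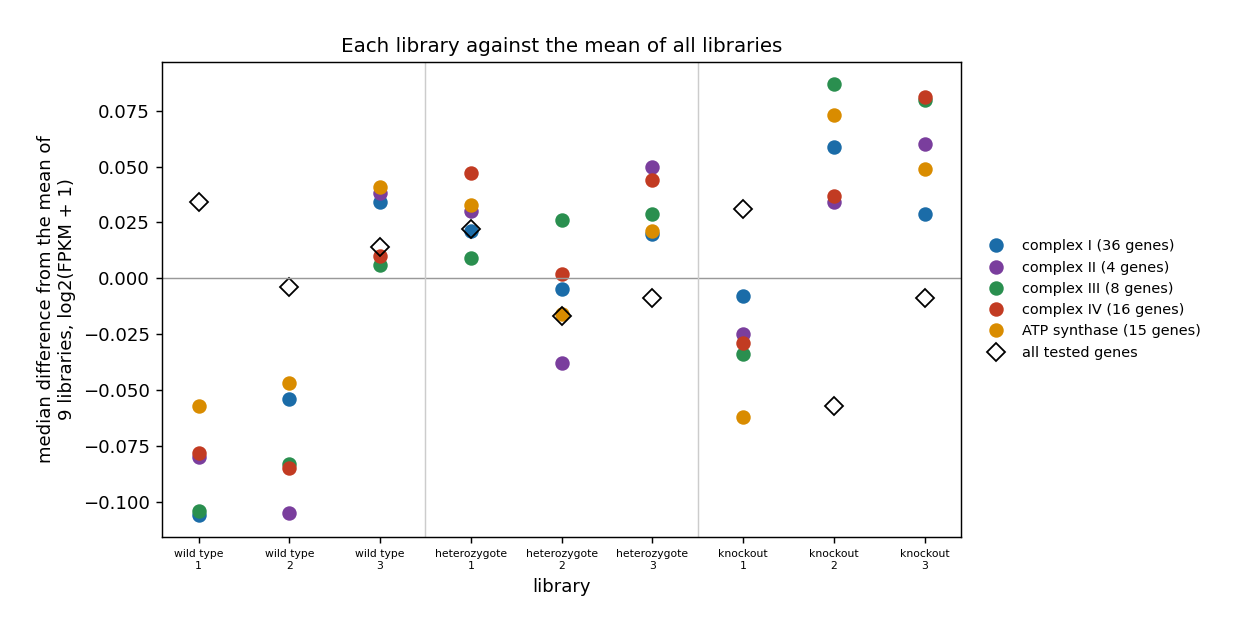
Median difference of the genes of each complex from their mean over 9 libraries, on the log2(FPKM + 1) scale, for each library, with all tested genes as open diamonds. All complexes lie below 0 in wild-type replicates 1 and 2 and in knockout replicate 1, and above 0 in wild-type replicate 3 and knockout replicates 2 and 3.

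Without wild-type replicate 1, 56 of the 82 genes were above 0 in knockout against wild type and the median was 0.04, with 1 gene at an unadjusted p under 0.05 in place of 9. Of all tested genes, 44.5% were above 0 and 717 had such a p in that fit, in place of 1117. Without wild-type replicate 3 the median was 0.11, with 24 such genes of the 82 and 1509 of all. Without knockout replicate 1 it was 0.10, with 17 of the 82 and 2628 of all. The 2 low wild-type libraries are also those without Xist. With sex as a covariate, 52 of the 82 were above 0 in knockout against wild type with a median of 0.03, 68 in heterozygote against wild type, and 25 in knockout against heterozygote with a median of -0.03. The shares of all tested genes above 0 in these fits were 43.2%, 42.9% and 46.9%. The heterozygote against wild type values cannot move with this covariate, because each of these groups has 1 library of 3 with Xist. Heterozygote replicates 1 and 2 lack Xist too, and their summed levels of 20407 and 19966 FPKM were above those of wild-type replicates 1 and 2. Among libraries with Xist, the summed level of the 1 wild type, 20442 FPKM, lay within those of the 3 knockouts, 19494 to 21078. Such comparisons rest on few libraries each. All 3 knockouts have Xist, so sex and knockout genotype are confounded here.

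Marker genes of cell types were read in the same libraries, and none of them passed the test. The 10 acinar markers summed to 18216 to 18602 FPKM in wild type, 20127 to 22782 in heterozygotes and 16750 to 25672 in knockouts, and 8 and 9 of the 10 were above 0 in knockout and in heterozygote against wild type. Knockout replicate 1 had the lowest acinar sum and knockout replicate 2 the highest, which is also their order in respiratory chain levels among the knockouts. The heterozygotes differed: replicate 2 had their highest acinar sum, 22782 FPKM, and their lowest respiratory chain sum, 19966 FPKM. Wild-type acinar sums lay close together, at 18413.5, 18216.1 and 18601.5 FPKM, beside respiratory chain sums of 18819, 18886 and 20442 FPKM. The 9 mesenchyme markers summed to 1471 to 1945, 1357 to 1560 and 1170 to 1683 FPKM, and 0 and 1 of the 9 were above 0. The 6 endothelial markers summed to 149.4 to 177.6, 145.1 to 152.9 and 122.3 to 156.8 FPKM. The 7 immune markers summed to 249 to 276.2, 227.7 to 273.6 and 199.6 to 231.8 FPKM. The 10 endocrine markers summed to 4150 to 5854, 3275 to 5064 and 3143 to 5073 FPKM. The 4 liver markers summed to 380.1 to 543, 265.2 to 451.1 and 286.4 to 437.7 FPKM, with 0 of 4 above 0 in either mutant group against wild type. Most of that sum was Ttr, at 246 to 489.9 FPKM per library. Alb and Apoa1 stood out in wild-type replicate 2, at 36.45 and 7.427 FPKM, against at most 5.041 and 1.48 FPKM in any other library. The erythroid markers summed to 4793 to 6998, 2604 to 5465 and 5098 to 7089 FPKM, with 0 of the 7 tested above 0 in heterozygotes and 5 in knockouts. The neuron and glia markers summed to 68.6 to 113.9, 42.7 to 211.7 and 47.3 to 171 FPKM, and the 7 duct and trunk markers to 755.1 to 894.5, 749.4 to 844.8 and 736.4 to 805.3 FPKM. No marker of any list was at 0 in all libraries. Their part in the respiratory chain differences was not tested.

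Among single genes, Ndufa12 had the smallest p in both comparisons with wild type. It was at 26.9, 41.7 and 23.3 FPKM in wild type, 43.4, 43.7 and 39.8 in heterozygotes, and 43.1, 55.9 and 46.7 in knockouts. Wild-type replicates 1 and 3 were below all other libraries, while wild-type replicate 2 lay within the heterozygotes and just below the knockouts. Its log2 difference was 0.68 (SE 0.18, limma adjusted p = 0.58) for knockout and 0.50 (SE 0.18, limma adjusted p = 0.95) for heterozygote against wild type. Without wild-type replicate 3 the first of these was 0.51, and without wild-type replicate 2 it was 0.92. Over the alternatives run, the limma adjusted p for knockout against wild type ranged from 0.063 to 0.97.

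Ndufa8, an accessory complex I gene of the intermembrane space side, was tighter. It was at 135.6, 134.9 and 141.6 FPKM in wild type, 154.6, 143.7 and 149.2 in heterozygotes, and 149.7, 151.2 and 150.5 in knockouts. The wild types lay below all other libraries. The log2 difference of knockout against wild type was 0.13 (SE 0.04, limma adjusted p = 0.58).

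Uqcrfs1 was at 128.5, 127.9 and 138 FPKM in wild type, 139.9, 134.4 and 141.4 in heterozygotes, and 139.1, 157.6 and 146.1 in knockouts. The knockouts lay above the wild types, and the heterozygotes overlapped with both. Its log2 difference was 0.17 for knockout against wild type (SE 0.06, limma adjusted p = 0.58) and 0.09 for knockout against heterozygote.

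After Ndufa12, a pair of complex IV genes had the smallest p among genes higher in heterozygote than in wild type. Cox6a1 was at 671.2, 676.6 and 716.2 FPKM in wild type, 797.1, 745.1 and 768.9 in heterozygotes, and 712.4, 783.7 and 782.6 in knockouts, and Cox8a, the gene of a small single-span subunit, at 581.6, 592.9 and 649, then 702.5, 665.1 and 684.3, then 642.1, 714.2 and 682.2 FPKM. In both genes the heterozygotes lay above the wild types and the knockouts overlapped with the wild types. The log2 differences of heterozygote against wild type were 0.16 for Cox6a1 and 0.17 for Cox8a (limma adjusted p = 0.95 for both).

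On the lower side Atp5h had the smallest p in both comparisons with wild type. It was at 52.2, 55.5 and 50.8 FPKM in wild type, 50.8, 46.9 and 42.1 in heterozygotes, and 46.8, 49.6 and 49.5 in knockouts. It was the only one of the 82 genes whose wild types lay above all libraries of a mutant group, and it did so in both comparisons, although wild-type replicate 3 and heterozygote replicate 1 differed by less than 1 FPKM. The log2 differences were -0.12 for knockout and -0.18 for heterozygote against wild type (limma adjusted p = 0.60 and 0.95). By p, Atp5l and Cox7c were next for knockout against wild type, at -0.16 and -0.12. All 3 genes have near-identical copies, 4 of them for Atp5h. In heterozygote against wild type Cox6b2 and Ndufa4l2 were next by p, at -0.11 and -0.33. By size, the genes lowest in knockout against wild type were Ndufs5, Ndufa4l2 and Cox4i2, at -0.45, -0.38 and -0.21, with SEs of 0.84, 0.34 and 0.20.

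Genes whose libraries did not overlap were also counted, from the same values as above, so these counts are not separate evidence. In knockout against wild type 8 of the 82 were fully above (Ndufc2, Ndufv3, Ndufa8, Ndufa9, Ndufa12, Sdhb, Uqcrfs1 and Cox4i1) and 1 fully below, against 4.55% and 6.64% of all tested genes. In heterozygote against wild type 11 were above (Ndufb11, Ndufa8, Ndufc1, Uqcrq, Uqcr11, Uqcrb, Cox6a1, Cox4i1, Cox8a, Cox6b1 and Atp5o) and 1 below, against 3.54% and 7.05%. Between knockout and heterozygote 3 were above (Ndufv3, Ndufa10 and Uqcrc1) and 0 below, against 3.48% and 2.43%.

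Among genes higher in knockout than in heterozygote, those of smallest p were Ndufv3, a flavoprotein-arm subunit gene of complex I, at a log2 difference of 0.10, Uqcrc1, a core protein gene of complex III, at 0.12, and Uqcrfs1. Uqcrc1 was at 218.8, 216.1 and 214.7 FPKM in heterozygotes and 230, 238.8 and 236.3 in knockouts. The wild types, at 215, 200.1 and 234.5 FPKM, overlapped with both. On the lower side were Atp5l at -0.16, Cox4i2 at -0.26 and Ndufa13, an accessory complex I gene, at -0.07, with limma adjusted p = 0.9998 for each.

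Most respiratory chain genes varied little between libraries. The median CV was 5.84%, against 8.80% over all tested genes, but genes at this level vary less in general: at a mean of 50 FPKM or more, the median was 5.69% for 70 of the 82 and 5.62% for 1927 tested genes. The CV was under 10% for 73 genes and 15% or more for 6. Those 6 were Ndufs5, Ndufa4l2 (32.1%), Ndufa12 (24.5%), Cox4i2 (23.6%), Cox7a1 (23.5%) and Ndufb2 (19.7%).

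Of these 6, Ndufa4l2, Cox4i2 and Cox7a1 are restricted isoforms of complex IV; Cox6b2, another one, had a CV of 9.9%. Ndufa4l2 was at 27.7, 35.5 and 24.7 FPKM in wild type, 34.3, 13.9 and 25.1 in heterozygotes, and 35, 18.1 and 16.6 in knockouts. It was lowest in heterozygote replicate 2 and knockout replicates 2 and 3. These libraries also had the 3 lowest mesenchyme sums, 1357, 1170 and 1310 FPKM. They had the 3 lowest sums of the 6 neuron and glia markers, 42.7, 47.3 and 50.3 FPKM. Their acinar sums were the 3 highest, 22782, 25672 and 21075 FPKM. Ndufa4l2 was highest in wild-type replicate 2, heterozygote replicate 1 and knockout replicate 1. These had the 3 highest neuron and glia sums, 113.9, 211.7 and 171 FPKM, while their mesenchyme sums were not the 3 highest. Cox4i2 was at 6.47, 5.72 and 4.58 FPKM in wild type, 7.81, 3.97 and 6.09 in heterozygotes, and 5.55, 4.34 and 4.13 in knockouts. Its 3 lowest values were also in heterozygote replicate 2 and knockout replicates 2 and 3. The part of mesenchyme, neurons, glia and acinar cells in these levels was not tested, and this order of libraries was noticed in the data. The locus of Ndufa4l2 overlaps that of Shmt2, and no label says whether fragments were assigned by strand, so reads of the overlapping part may count for either gene.

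Cox7a1 went another way. It was at 79.2, 47.95 and 71.95 FPKM in wild type, 95.5, 55.1 and 70.9 in heterozygotes, and 58.7, 94.1 and 88.7 in knockouts. The highest levels were in heterozygote replicate 1 and knockout replicates 2 and 3, whose endocrine marker sums were the 3 lowest, 3275, 3460 and 3143 FPKM. The largest single part of that sum is Ins2, an insulin gene, at 1463, 1390.1 and 1190.6 FPKM in these libraries. Sst, the somatostatin gene of the same list, went the other way: it was at 374.8, 421.6 and 454.9 FPKM in these 3 libraries and at 151.2 to 200.8 in the other 6. The part of endocrine cells in the Cox7a1 levels was not tested. The log2 difference of knockout against wild type was 0.28 with an SE of 0.25, so the groups did not differ beyond their spread. Cox4i1, the broad isoform of subunit 4, was steady beside these, at 615.9 to 657.8 FPKM in wild type, 664 to 686.6 in heterozygotes and 661.8 to 701.1 in knockouts.

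Ndufb2, an accessory complex I gene picked out by its spread, was at 51.5, 60.6 and 81.1 FPKM in wild type, 74.3, 98.4 and 65.2 in heterozygotes, and 67.9, 88.9 and 73.7 in knockouts. The 3 groups overlapped. No near-identical copy of it was found by the search above.

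**Figure D5:**
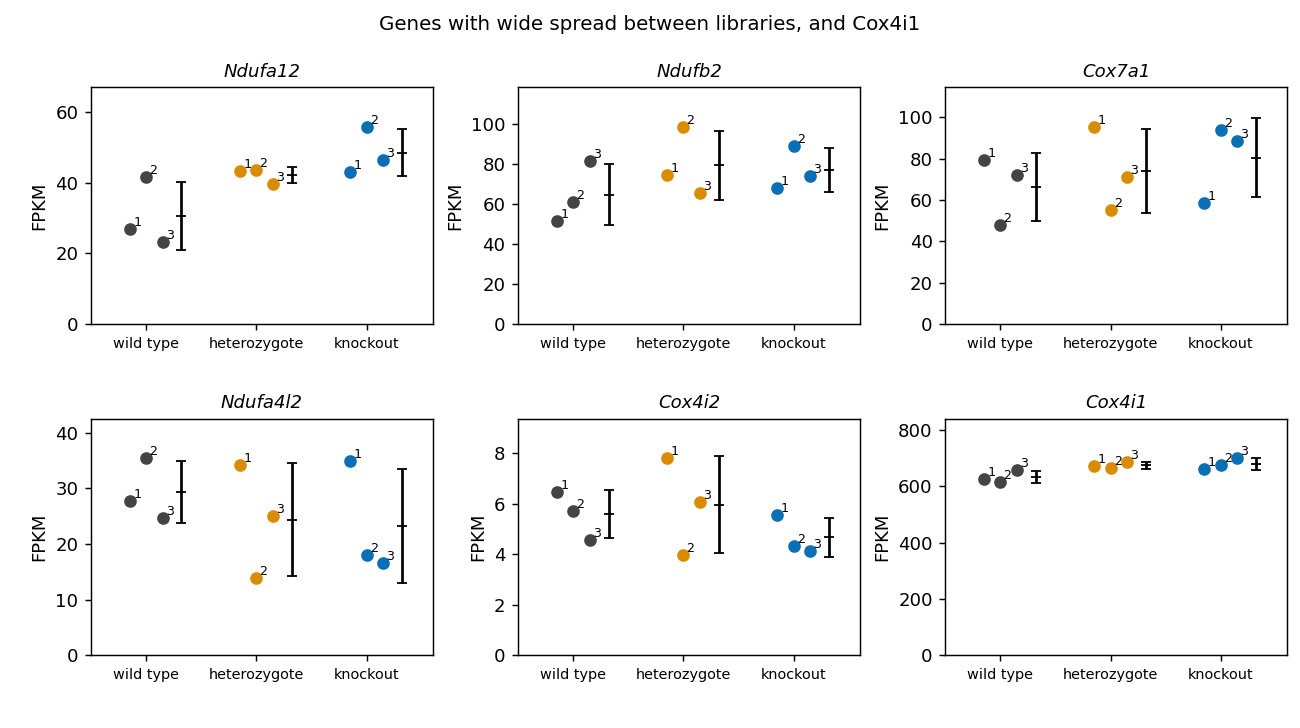
FPKM per library for Ndufa12, Ndufb2, Cox7a1, Ndufa4l2, Cox4i2 and Cox4i1, with replicate numbers beside the points and mean ± SD (n = 3) in black. The 3 genotypes overlap for Ndufb2, Cox7a1, Ndufa4l2 and Cox4i2; for Cox4i1 the wild types lie at 615.9 to 657.8 FPKM, below all heterozygotes and knockouts.

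Other genes of mitochondrial energy metabolism were read from lists. None passed the test in any comparison (limma, adjusted over all genes). Of 30 tested assembly factors, 20 were above 0 in knockout against wild type with a median log2 difference of 0.06, and 15 in heterozygote against wild type. The 2 of smallest p were Bcs1l, the chaperone that inserts the Rieske protein, at 0.16, and Cox17, a copper carrier for complex IV, at 0.15. Of 20 genes of mobile carriers and coenzyme Q synthesis, 18 were above 0 in knockout and 17 in heterozygote against wild type, with a median of 0.09 in knockout. This list also holds Cyc1, which encodes cytochrome c1 of complex III. The symbol Cyc1 does not match the rule, so the complex III sums and counts leave it out. Also in the list are Etfa, Etfb, Etfdh, Dhodh, Gpd2 and Aifm1. Pdss2, which makes the coenzyme Q side chain, was at 10.2, 8.09 and 9.41 FPKM in wild type, 11.6, 9.16 and 9.67 in heterozygotes, and 11.8, 12.6 and 11.6 in knockouts. The knockouts were above the wild types, at a log2 difference of 0.35 (SE 0.10, limma adjusted p = 0.58). Aifm1, a flavoprotein needed for complex I biogenesis, was at 0.19.

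Of 18 tricarboxylic acid cycle and pyruvate dehydrogenase genes, 17 were above 0 in knockout and 16 in heterozygote against wild type, with a median of 0.11 in knockout. Ogdh and Dld, 2 components of the 2-oxoglutarate dehydrogenase complex, were at 0.12 and 0.14. Of 76 mitochondrial ribosomal protein genes, 61 were above 0 in each of these comparisons, with a median of 0.06 in knockout, and Mrpl42 and Mrps2 were at 0.22 and 0.17. Of 11 tested genes of the inner membrane exchange and uncoupling list, 9 were above 0 in knockout and 10 in heterozygote. That list also holds Nnt, Phb, Phb2, Atpif1 and the outer membrane channel genes Vdac1, Vdac2 and Vdac3. The carriers Slc25a5 for adenine nucleotides and Slc25a3 for phosphate were at 0.12 and 0.09. Of 17 regulators, 10 were above 0 in knockout and 11 in heterozygote, with a median of 0.02 in knockout. Among them Mterfd1, a mitochondrial transcription and ribosome factor, was at -0.12 and Polg, the mitochondrial DNA polymerase, at 0.12. Between knockout and heterozygote the counts above 0 were 17 of 30, 16 of 20, 14 of 18, 38 of 76, 7 of 11 and 11 of 17 in the order of the lists given here. With sex as a covariate, 42 of the 76 ribosomal protein genes, 16 of the 18 tricarboxylic acid cycle genes, 13 of the 20 carrier and coenzyme Q genes, 17 of the 30 assembly factors and 11 of the 17 regulators were above 0 in knockout against wild type. For the inner membrane exchange and uncoupling list the count was then 5 of 11, with the median at -0.01.

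Nuclear respiratory chain genes are known targets of the transcription factors NRF1, GABPA and YY1, and all 3 factors were transcribed, Nrf1 at 14.91, Gabpa at 21.68 and Yy1 at 40.54 FPKM. Their log2 differences for knockout against wild type were 0.00, 0.03 and 0.06. Promoters of 250 bases before to 50 bases after a start site came from RefSeq (GRCm38.p6), matched by symbol for 65 of the 82 genes, using the start site listed first. On either strand, the NRF1 core GCGCATGC occurred in 10 of the 65 (15.4%), the GABPA site CCGGAAG in 15 (23.1%) and the YY1 site AAGATGGC in 8 (12.3%). The shares were 2.8%, 9.12% and 2.88% of 27025 promoters of all symbols, and 5.43%, 17.5% and 4.44% of the 9445 of tested genes. The NRF1 core was found for Ndufa6, Ndufa8, Ndufa11, Sdhb, Uqcrc1, Uqcr11, Cox6a1, Atp5g2, Atp5k and Atp5l. The YY1 site was found for 7 complex I genes (Ndufa3, Ndufa9, Ndufb8, Ndufc1, Ndufs4, Ndufs6 and Ndufs7) and for Atp5j2. Such matches describe letters and show no binding.

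The promoters of Cox6a1, the highest complex IV gene, and of Sdhb, the highest complex II gene, are shown as examples. The 250 bases before the start site are given 5′ to 3′ on the gene's strand, with NRF1 and GABPA matches in capitals. In Cox6a1 (GRCm38.p6 chr5:115348959-115349208, minus strand) the first capitals are a palindrome that matches the NRF1 core on both strands and the second a GABPA match on the opposite strand. In Sdhb (GRCm38.p6 chr4:140961021-140961270, plus strand) the capitals are an NRF1 match on the opposite strand; its GABPA match reaches beyond or lies after the start site:
Cox6a1: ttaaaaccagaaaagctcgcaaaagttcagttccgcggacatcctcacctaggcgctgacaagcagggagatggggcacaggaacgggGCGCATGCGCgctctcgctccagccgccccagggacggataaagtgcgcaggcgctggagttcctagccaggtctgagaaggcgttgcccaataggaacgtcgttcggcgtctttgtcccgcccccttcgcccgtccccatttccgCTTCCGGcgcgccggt
Sdhb: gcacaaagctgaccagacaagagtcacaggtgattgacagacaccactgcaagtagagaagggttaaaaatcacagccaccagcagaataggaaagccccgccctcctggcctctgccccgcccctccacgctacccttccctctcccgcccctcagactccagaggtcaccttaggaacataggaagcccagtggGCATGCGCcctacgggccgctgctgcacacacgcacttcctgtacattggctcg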

How the data were processed

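The authors deposited 1 table of FPKM per gene for each of 9 libraries, with confidence bounds in the same unit, per the file headers. TopHat 2.0.4 aligned the reads to mm9 (4 mismatches, at most 10 hits), per the labels. The submitters' processing notes also name CASAVA 1.8.2, Cufflinks and DESeq. No label or header states the annotation or the strand setting. Groups and replicate numbers came from sample titles.

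FPKM were summed per symbol. Rows marked as failed for excess data were treated as missing, which removed 4 symbols. Genes with 1 FPKM or more in at least 3 libraries were tested (13306) on log2(FPKM + 1) with limma 3.58.1 (intensity trend, R 4.3.3), all 9 libraries in 1 fit, two-sided, Benjamini-Hochberg adjusted over all tested genes, threshold 0.05. This scale understates changes of low genes. The upper bound was read as 2 standard errors above the FPKM, which gives implied fragments. Only 73.85% to 74.6% of low values per library were whole numbers within 0.05, so they served only for depth and for voom as an alternative. The fit was tested on simulated data for knockout against wild type. It recovered 48 of 100 log2 changes of 0.5 and 90 of 100 of 1, with 5 false calls. Changes smaller than 0.5 were not simulated. Copies were found with BLAST 2.17.0.

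The genes and lists were chosen with earlier results of these data known. Genes are named by rule: highest and lowest levels per complex, smallest p per comparison, isoform sets, succinate dehydrogenase, extreme CV, and the 2 genes of smallest p per list. Others are said to be named after their values were seen, or are listed because a count rests on them. Alternatives were the pseudocount, filters, scaling, samples in the fit, sex, replicate block, library weights, voom, loci kept apart and leaving out each library.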

Additional observations from a re-analysis of the deposited data

How the results depend on the processing

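No respiratory chain gene was called in any comparison under any alternative run. Over all tested genes, the count called in knockout against wild type was 0 as reported, 5 with array weights, 1 with only the 2 groups in the fit, and 0 to 1 with each library left out. In heterozygote against wild type it was 0, 6 with only the 2 groups, and 0 to 7 with each library left out. In knockout against heterozygote it was 0, and 0 to 4 with each library left out. The median log2 difference of the 82 genes in heterozygote against wild type ranged from 0.035 to 0.097 with each library left out, and in knockout against heterozygote it was -0.026 with sex as a covariate; the cause was not tested. The 1 named gene to change sign was Ndufa4l2 in heterozygote against wild type, which ranged from -0.606 without heterozygote replicate 1 to 0.018 without heterozygote replicate 2.

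Correlations between the deviations of same-numbered libraries ran from -0.189 to 0.29, against -0.344 to 0.276 for libraries with different numbers. Between heterozygotes and knockouts the same-numbered values were 0.29, 0.275 and 0.047, against -0.344 to 0.148 for different numbers. The labels do not say that the numbers mark pairs, so the main fit did not use them. Whether same-numbered libraries share a litter or batch was not tested. With the replicate block, 0, 1 and 0 of all tested genes were called in knockout against wild type, heterozygote against wild type and knockout against heterozygote, and 0 of the 82.

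By construction, sums without the gene of highest mean were lower. In wild type, heterozygote and knockout they were 4898.6, 5076.9 and 5140.1 FPKM for complex I, 462.9, 481.3 and 481 for complex II, 1355.5, 1429.7 and 1463.1 for complex III, 3999.7, 4245 and 4264.1 for complex IV, and 5712.7, 5894.2 and 5908.1 for ATP synthase. Depth limits the low isoforms: Cox4i2 rested on 46 implied fragments in knockout replicate 3 and on at most 87 elsewhere.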

Other observations

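Nnt, the inner membrane transhydrogenase that makes NADPH from the proton gradient, was singled out after its values were seen. It was at 26.5, 25.1 and 25 FPKM in wild type, 32.4, 19.4 and 33.3 in heterozygotes, and 34.3, 20.5 and 33.9 in knockouts. Heterozygote replicate 2 and knockout replicate 2 were below all wild types, and the other 4 mutant libraries were above them. The log2 difference of knockout against wild type was 0.17 (SE 0.23, limma adjusted p = 0.80). Nnt is known to differ between mouse substrains, and the labels give a mixed background; the part of the background in these values was not tested.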
